A study of Mus musculus with 6 samples.

Results

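Tdrd1, Vwa2 and Afap1l2 are 3 adjacent genes on mouse chromosome 19, of 24972 genes in each deposited table, and they were followed through the upper first molars of newborn mice of 3 Ascl5 genotypes. They were chosen by symbol. Tdrd1 and Afap1l2 were chosen because their values were lower with mutant Ascl5 alleles in these same libraries, and Vwa2 because it lies between them. The levels of Tdrd1 and Afap1l2 are therefore given as a description with no test, and only Vwa2 and the surrounding genes, which were taken by position, are tested. RNA was measured in maxillary first molars at postnatal day 1 in 6 libraries, with 2 each of Ascl5WT/WT, Ascl5Mut/WT (the mutation on 1 allele) and Ascl5Mut/Mut (on both alleles). The labels give all 6 libraries the same batch. They do not describe the mutation, the strain, the sex or how many animals or teeth made up a library, so p-values measure only the spread between these libraries, which may be technical.

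The protein made from Ascl5 is a basic helix-loop-helix factor, of a class that binds short DNA words called E-boxes. Tdrd1 encodes a tudor domain protein that in male germ cells gathers PIWI proteins into cytoplasmic granules, where small piRNAs that silence transposons are made. Vwa2, also called AMACO, encodes a secreted protein with von Willebrand factor A domains that is laid down at epithelial basement membranes, where it associates with the Fraser complex of Fras1 and Frem proteins. Afap1l2, also called XB130, encodes an adaptor related to the actin filament associated protein AFAP1 and is a substrate and partner of Src family kinases.

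The 3 genes spanned 182.0 kb of GRCm38 in the GENCODE M21 annotation. Tdrd1 (ENSMUSG00000025081) lay at chr19:56826209-56870012 on the plus strand and Vwa2 (ENSMUSG00000025082) at chr19:56874249-56912078 on the same strand. Afap1l2 (ENSMUSG00000025083) lay at chr19:56912361-57008228 on the minus strand. Between the end of Tdrd1 and the start of Vwa2 were 4236 bases. Vwa2 and Afap1l2 ran towards each other and their 3' ends were 282 bases apart (275 in RefSeq). No exon of the 3 genes shared a base with an annotated exon of the opposite strand, and 0 other gene models overlapped any of them. Whether the authors' counting used the strand is unknown here, and the tables do not show from which strand the reads of these genes came.

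The promoters of the 3 genes are shown because the genes lie together and are set against the dose of a helix-loop-helix factor. Each sequence runs 5' to 3' on the gene's own strand, from 250 bases before to 50 bases after a RefSeq start (GRCm38.p6), and capitals mark every CANNTG, the E-box word, which reads as CANNTG on both strands. They cover chr19:56825959-56826258 for Tdrd1, chr19:56874166-56874465 for Vwa2 and chr19:57008526-57008825 for Afap1l2. Where RefSeq lists several starts, as the 3 of Tdrd1, the start nearest to that of GENCODE is shown. The annotations differ for the other genes. The Afap1l2 window lies wholly upstream of the GENCODE start of that gene, 57008228, and holds no base of that model. The GENCODE start of Vwa2, 56874249, lies within its window but upstream of the RefSeq start.
Tdrd1: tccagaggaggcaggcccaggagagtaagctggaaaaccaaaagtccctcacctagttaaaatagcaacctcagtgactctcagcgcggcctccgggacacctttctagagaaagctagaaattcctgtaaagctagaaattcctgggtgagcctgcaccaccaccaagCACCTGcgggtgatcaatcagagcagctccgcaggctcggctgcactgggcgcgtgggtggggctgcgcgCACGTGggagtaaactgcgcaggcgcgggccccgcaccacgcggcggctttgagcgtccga
Vwa2: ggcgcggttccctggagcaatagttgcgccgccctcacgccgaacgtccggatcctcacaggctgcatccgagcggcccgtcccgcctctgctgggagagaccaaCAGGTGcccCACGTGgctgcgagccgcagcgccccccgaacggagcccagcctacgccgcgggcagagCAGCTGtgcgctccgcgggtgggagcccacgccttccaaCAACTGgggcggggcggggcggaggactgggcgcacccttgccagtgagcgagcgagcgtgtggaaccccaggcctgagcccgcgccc
Afap1l2: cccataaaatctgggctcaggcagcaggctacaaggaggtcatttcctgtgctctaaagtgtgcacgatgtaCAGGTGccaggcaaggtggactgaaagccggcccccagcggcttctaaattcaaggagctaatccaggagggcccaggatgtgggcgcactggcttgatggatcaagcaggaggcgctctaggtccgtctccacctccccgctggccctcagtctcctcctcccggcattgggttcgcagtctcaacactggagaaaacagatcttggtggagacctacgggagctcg
The Tdrd1 promoter held 2 E-box words, that of Vwa2 held 4 and that of Afap1l2 held 1. Of 32851 RefSeq promoters of the same length, 72.3% held at least 1, 39.6% at least 2 and 6.49% at least 4. The word CACGTG, an E-box that is counted above too, stood in the Tdrd1 and the Vwa2 promoter and in 7.15% of all promoters. The word CAGCTG, also counted above, stood in that of Vwa2 and in 16.3% of all. These matches describe the letters in these windows only.

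The tables hold normalized counts on a linear scale. Totals were 12304814 to 13118122 per library, low values lay in steps of 108.7 to 139.8 that appear to be worth 1 read, and dividing totals by steps put the depth at roughly 90477 to 117386 reads. A listed 0 therefore means that no read was counted. A level worth up to about 3 reads could still give it, which sets a floor of 326 to 419 normalized counts. Depths, floors and counting intervals cover counting error only. The tables were normalized separately and both hold the same 2 Ascl5WT/WT libraries, so the comparisons share their controls and no test was made between the mutant genotypes. Ascl5 itself was listed at 0 in all 6 libraries, which leaves the genotype labels unchecked by its level. Epithelial and mesenchymal markers were present, with Krt14 and Col1a1 above 0 in every library. The summed level of 12 epithelial markers was 51805 to 62339 in Ascl5WT/WT, 16916 and 81089 in Ascl5Mut/Mut, and 41814 and 108265 in Ascl5Mut/WT. The summed level of 6 markers of keratinized oral mucosa was 109 and 306 in Ascl5WT/WT of the Ascl5Mut/Mut table, but 18698 and 120260 in Ascl5Mut/Mut and 13437 and 44535 in Ascl5Mut/WT. Limma called 3 of the 5 tested higher in Ascl5Mut/Mut and 2 of 4 in Ascl5Mut/WT, against 0.856% and 0.549% of all genes tested. Krt4 (limma adjusted p = 0.0151 and 0.000261) and Krt13 (limma adjusted p = 0.0271 and 0.0062) passed in both comparisons. Rptn passed for Ascl5Mut/Mut only (limma adjusted p = 0.0403). For 14 markers of dental mesenchyme the sums were 84341 and 112418 in Ascl5WT/WT, 137311 and 79446 in Ascl5Mut/Mut, and 128071 and 56556 in Ascl5Mut/WT. Within that list Dlx1, a homeobox gene of jaw mesenchyme, fell from 47224 and 53336 to 2348 and 556 in Ascl5Mut/Mut (limma adjusted p = 0.00405) and from 48116 and 55586 to 4658 and 2064 in Ascl5Mut/WT (limma adjusted p = 1.41e-05). Col1a1 in turn had 11973 and 23032 against 46509 and 26959 and did not pass (limma adjusted p = 0.358). For 6 bone markers the sums were 546 and 7431 in Ascl5WT/WT, 34907 and 27629 in Ascl5Mut/Mut, and 24463 and 9131 in Ascl5Mut/WT. Those of 5 osteoclast markers were 430 and 120, then 16198 and 9923, and 7838 and 2032. Among them Ctsk was called higher in Ascl5Mut/Mut (limma adjusted p = 0.0151) and did not pass in Ascl5Mut/WT (limma adjusted p = 0.461). The sums of 5 muscle markers were 543 and 10268, then 87520 and 4408, and 23135 and 6621. The part of these differences in the results that follow was not tested.

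Tdrd1 had among the higher counts per kb in Ascl5WT/WT molars and far lower ones in Ascl5Mut/Mut molars, though the strand of these reads is unknown. In the Ascl5Mut/Mut table its values were 21355 and 16039 normalized counts in the 2 Ascl5WT/WT libraries, against 0 and 1345 in Ascl5Mut/Mut. Both Ascl5Mut/Mut libraries lay far below both controls, and replicate 1, listed at 0, allows up to 419 normalized counts by the floor of 3 reads, or 516 as the upper end of an exact 95% Poisson interval. The Ascl5Mut/Mut mean was 3.60% of the Ascl5WT/WT mean. In the Ascl5Mut/WT table Tdrd1 had 21748 and 16708 in Ascl5WT/WT against 4298 and 4720 in Ascl5Mut/WT. The Ascl5Mut/WT libraries stood close together, at 23.5% of their controls, and again the groups did not overlap. Per kb of exon, the Ascl5WT/WT mean was 3435, which placed Tdrd1 at rank 113 of 24490 genes with an annotated length. The median of the genes above 0 was 74.7 per kb. In Ascl5Mut/Mut the Tdrd1 mean was 124 per kb, at rank 3926.

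Afap1l2 stood at much the same level as Tdrd1 in Ascl5WT/WT molars and was lower in the same libraries. In the Ascl5Mut/Mut table its values were 15834 and 19367 normalized counts in Ascl5WT/WT, against 558 and 2381 in Ascl5Mut/Mut. As for Tdrd1, replicate 1 was the lower of the Ascl5Mut/Mut libraries and no library of that genotype came near a control. The mean was 8.35% of that in Ascl5WT/WT. In the Ascl5Mut/WT table there were 16137 and 20190 in Ascl5WT/WT against 5035 and 4766 in Ascl5Mut/WT, a mean of 27.0% of the controls. Both heterozygous libraries lay between the other genotypes when each is read against the controls of its own table. Per kb of exon, the Ascl5WT/WT mean of Afap1l2 was 3101, at rank 126, and the Ascl5Mut/Mut mean was 259, at rank 2208.

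In Ascl5WT/WT molars Vwa2 had lower counts than both neighbours, at a mean of 312 per kb of exon and rank 1764 of 24490, above the median of 74.7. In Ascl5Mut/Mut its mean was 86.3 per kb, at rank 4899. The Ascl5Mut/WT mean was 196 per kb, at rank 2741 of 24479. It had 764 and 1762 normalized counts in the Ascl5WT/WT libraries of the Ascl5Mut/Mut table, against 276 and 423 in Ascl5Mut/Mut. The groups did not overlap, and the Ascl5Mut/Mut mean was 27.7% of the control mean, but the Ascl5WT/WT libraries differed from each other 2.31-fold. These values correspond to about 7 and 15 reads in Ascl5WT/WT and 2 and 3 in Ascl5Mut/Mut. The exact 95% Poisson intervals, 306 to 1568 for the lower control and 84.1 to 1192 for the higher mutant library, overlap widely. In the Ascl5Mut/WT table Vwa2 had 774 and 1826 in Ascl5WT/WT and 883 and 704 in Ascl5Mut/WT. There 1 heterozygous library lay between the controls, so the groups overlapped, and their mean was 61.0% of the control mean.

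**Figure D1:**
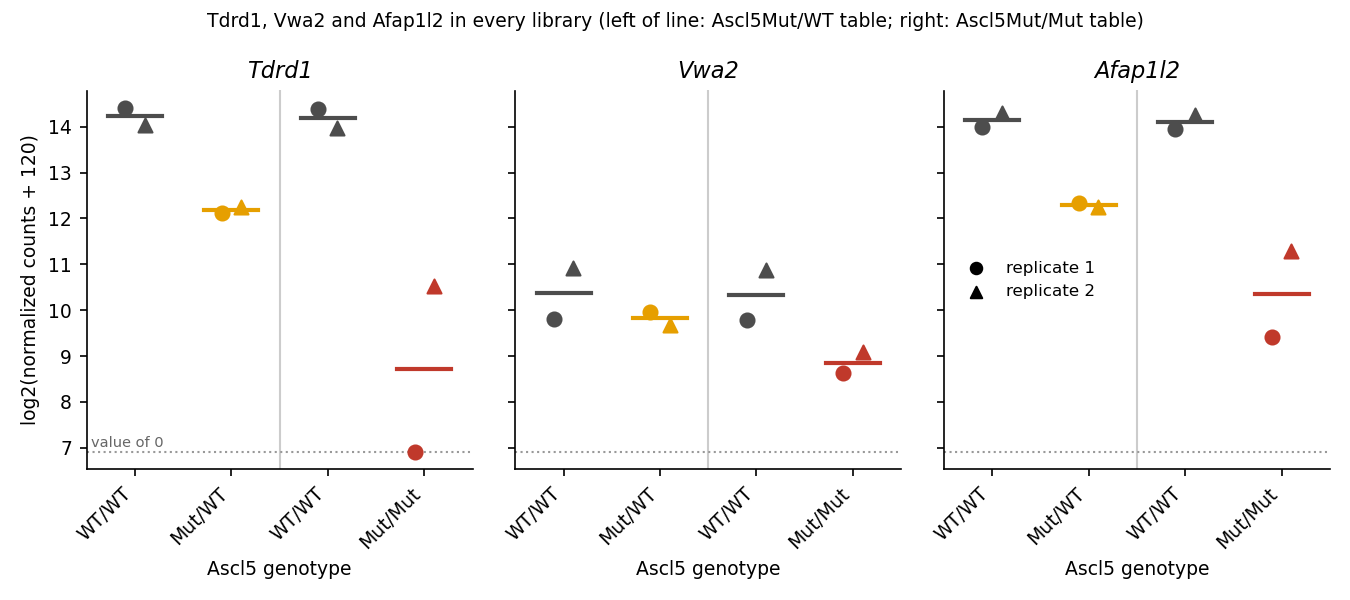
Each panel plots log2(normalized counts + 120) for 1 gene in every library by genotype, with the Ascl5Mut/WT table left of the vertical line and the Ascl5Mut/Mut table right of it. Points are libraries, bars are means of the plotted values (n = 2), and the dotted line is a value of 0. Tdrd1 and Afap1l2 step down from Ascl5WT/WT to Ascl5Mut/WT and to Ascl5Mut/Mut, while the 774 and 1826 of Vwa2 in Ascl5WT/WT enclose the 883 of an Ascl5Mut/WT library.

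Fitted differences were taken as mutant minus Ascl5WT/WT on the log2(normalized count + 120) scale, which understates changes of low genes such as Vwa2. The test was limma over all genes that averaged 1000 or more in the 4 libraries of a table. Vwa2, with a mean of 806 in the Ascl5Mut/Mut table, was below that minimum and was taken from the fit without it. Its difference for Ascl5Mut/Mut was -1.48 (SE 0.86, 95% interval -3.52 to 0.57), which did not pass (limma adjusted p = 0.709 over 12731 genes, unadjusted p = 0.132). For Ascl5Mut/WT the Vwa2 difference was -0.54 (SE 0.97, 95% interval -2.58 to 1.50), which did not pass either (limma adjusted p = 0.883 over 2370 genes). On the same scale Tdrd1 differed by -5.47 in Ascl5Mut/Mut and -2.05 in Ascl5Mut/WT, and Afap1l2 by -3.76 and -1.86. In Ascl5Mut/WT the interval of Vwa2 includes 0 and the differences of both neighbours, so at this depth neither can be told from its value. In Ascl5Mut/Mut the sizes are not comparable on this scale, because adding 120 to a gene at 764 and 1762 in the controls bounds how far it can go below them.

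Among all genes tested, limma called 0.856% in the Ascl5Mut/Mut comparison and 0.549% in that of Ascl5Mut/WT, and 11.2% and 8.73% had an unadjusted p under 0.05. Of the 3 members, 3 had both Ascl5Mut/Mut libraries below both controls and 2 had both Ascl5Mut/WT libraries below them. The shares of all genes above 0 that did the same were 13.5% and 11.8%, and among those that averaged 1000 or more they were 21.8% and 19.5%. Because these contrasts chose Tdrd1 and Afap1l2, nothing is read from those counts.

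Leaving out a library moved the sizes for Tdrd1 and Afap1l2. Their direction could not change, since in each table both mutant libraries lay below both controls. The Tdrd1 difference in Ascl5Mut/Mut was -3.67 without Ascl5Mut/Mut replicate 1 and -7.28 without replicate 2, and that of Afap1l2 was -2.82 and -4.70. The Vwa2 difference in Ascl5Mut/Mut was -2.02 without Ascl5WT/WT replicate 1 and -0.93 without Ascl5WT/WT replicate 2. In Ascl5Mut/WT it was -1.10 without Ascl5WT/WT replicate 1, and it turned to 0.02 without Ascl5WT/WT replicate 2.

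A single scaling factor per library cancels in ratios between genes of that library. The deposited normalization was not wholly such a factor. For Ascl5WT/WT replicate 1, Tdrd1 over Vwa2 was 27.94 in the Ascl5Mut/Mut table and 28.09 in the Ascl5Mut/WT table. Tdrd1 had 1.35 and 0.828 times the normalized counts of Afap1l2 in Ascl5WT/WT, 0.854 and 0.991 times in Ascl5Mut/WT, and 0 and 0.565 times in Ascl5Mut/Mut. The ratio of the pair overlapped between Ascl5WT/WT and Ascl5Mut/WT. Its Ascl5Mut/Mut values rest on about 0 and 10 reads of Tdrd1 and 4 and 18 of Afap1l2, and no difference is read from them. Afap1l2 had 20.7 and 11.0 times the counts of Vwa2 in Ascl5WT/WT, 5.70 and 6.77 times in Ascl5Mut/WT, and 2.02 and 5.64 times in Ascl5Mut/Mut. Tdrd1 had 27.9 and 9.10 times those of Vwa2 in Ascl5WT/WT, 4.87 and 6.71 times in Ascl5Mut/WT, and 0 and 3.18 times in Ascl5Mut/Mut. In all 4 mutant libraries both flanking genes were therefore lower relative to Vwa2 than in either control. The ratios to Vwa2 rest on 2 to 15 estimated reads of Vwa2 and on genes chosen for their fall, and were not tested.

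**Figure D2:**
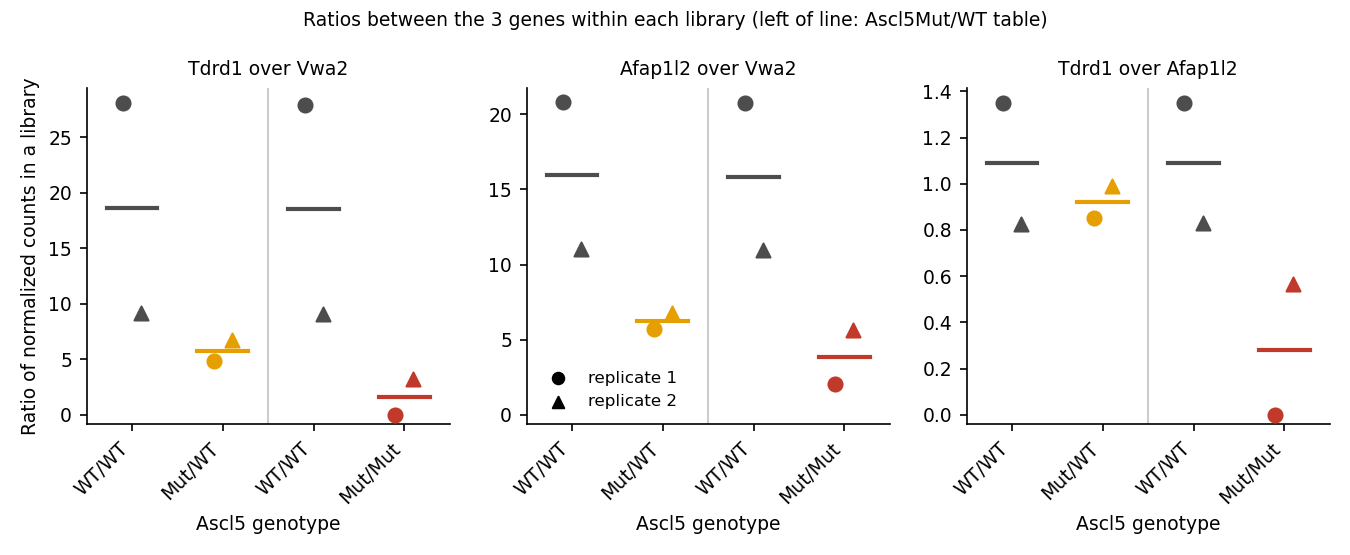
Each panel plots the ratio of normalized counts of 2 genes within a library, by genotype, with the Ascl5Mut/WT table left of the vertical line and the Ascl5Mut/Mut table right of it. Points are libraries and bars are means (n = 2). Both ratios to Vwa2 are lower in the mutant libraries (Afap1l2 over Vwa2 between 2.02 and 6.77) than in Ascl5WT/WT (11.0 and 20.7), while Tdrd1 over Afap1l2 overlaps between Ascl5WT/WT and Ascl5Mut/WT.

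None of the genes around the 3 passed the test. The 10 nearest protein-coding genes on each side, 20 in all, were taken by position. Of these, 7 were listed at 0 in all 6 libraries (Plekhs1, Dclre1a, Ccdc172, Pnlip, Pnliprp1, Pnliprp2 and 1700019N19Rik), which is 35.0% against 44.2% of all genes. The highest value of any neighbour in either table was 2246. With the minimum mean of 1000 only Ccdc186 could be tested, and limma called 0 of 1 in each comparison, with 0 at an unadjusted p under 0.05. Without the minimum, limma called 0 of 13 genes above 0 for Ascl5Mut/Mut and 0 of 11 for Ascl5Mut/WT. Again 0 had an unadjusted p under 0.05, where all genes above 0 gave 566 of 12731 and 502 of 12644. Of all genes, limma called 0.00785% and 0.0949% without the minimum, so 0 calls among so few is near the background. Median differences of those 13 and 11 genes were 0.56 and 0.07, against 0.01 and 0.05 over all genes above 0. Of the 13 neighbours above 0 in the Ascl5Mut/Mut table, 0 had both mutant libraries below both controls, against 13.5% of all genes above 0, and 1 had both above. That gene, Habp2, a hyaluronan-binding protease gene, had 0 and 118 in Ascl5WT/WT and 281 and 413 in Ascl5Mut/Mut. Of the 11 above 0 in the Ascl5Mut/WT table, 0 were below, against 11.8%, and 0 above. Only Tcf7l2, Ccdc186 and Atrnl1 were above 0 in both controls, and no library can lie below a control listed at 0. For the other neighbours the counts below both controls were therefore fixed in advance. With so few genes nothing is read from these counts.

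Ccdc186, which encodes a coiled-coil protein of dense-core vesicle formation, starts 4018 bases before Tdrd1 on the opposite strand. It had 2200 and 1099 normalized counts in Ascl5WT/WT, against 1526 and 1870 in Ascl5Mut/Mut, and the groups overlapped (limma adjusted p = 0.969). In the Ascl5Mut/WT table it had 2246 and 1147 against 1252 and 934 (limma adjusted p = 0.846). On the other side, Ablim1, an actin-binding LIM protein gene 24.5 kb beyond the start of Afap1l2, had 818 and 0 in Ascl5WT/WT, 674 and 922 in Ascl5Mut/Mut, and 353 and 140 in Ascl5Mut/WT. Ccdc186 was not lower in both libraries of a mutant genotype than in both controls. For Ablim1 this could not be seen, since a control was listed at 0.

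**Figure D3:**
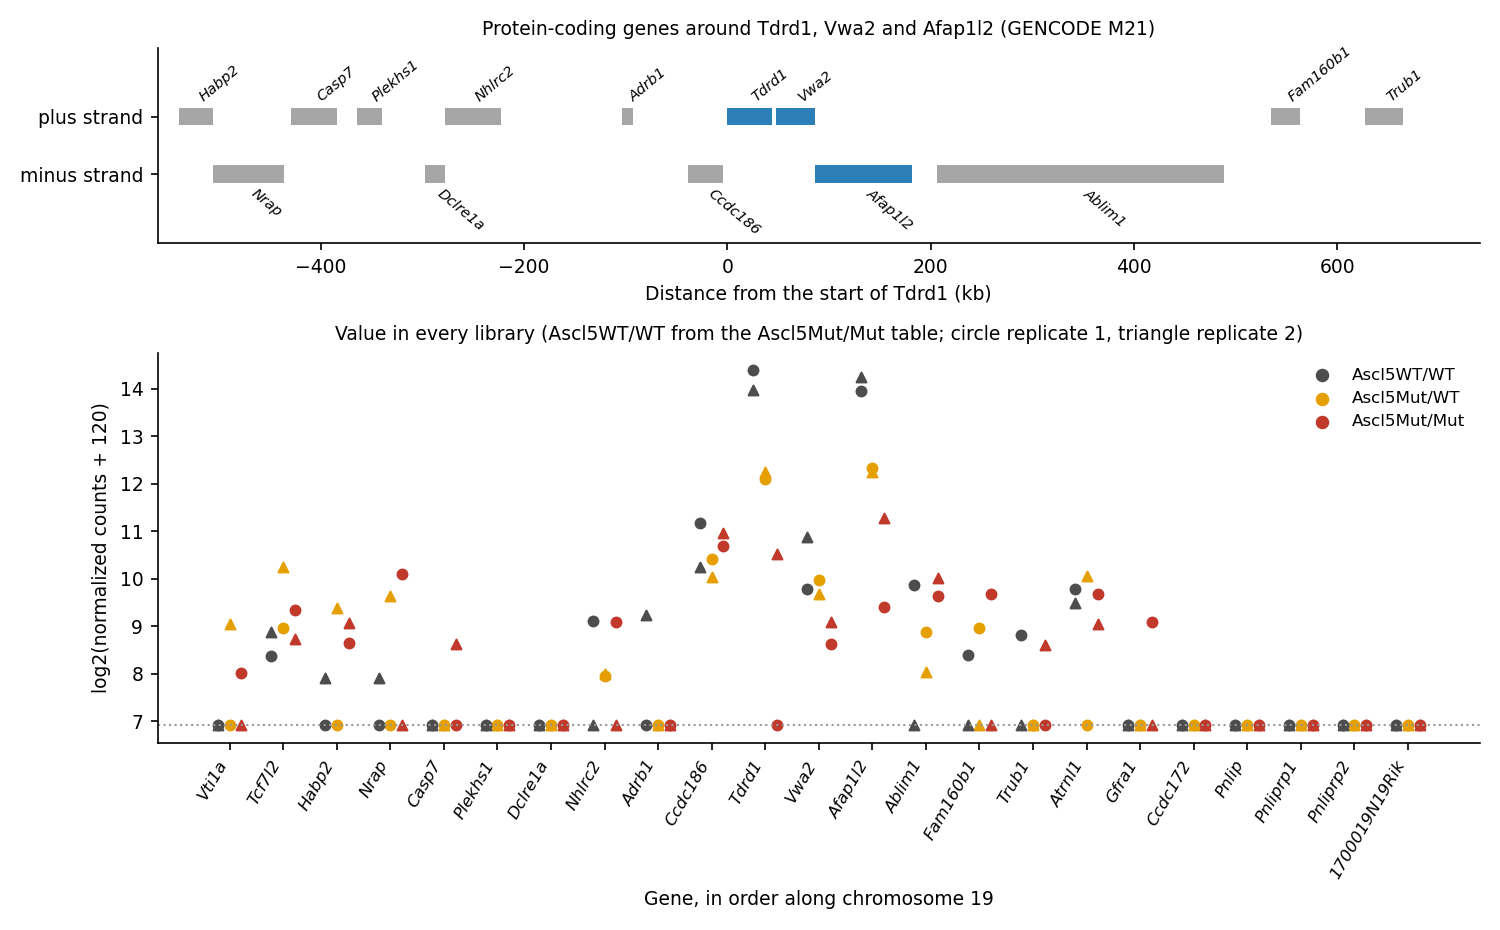
The upper panel maps the protein-coding genes around the 3 members (blue) by distance from the start of Tdrd1 in kb, with the strands on separate rows. The lower panel plots log2(normalized counts + 120) in every library for the 3 members and their 20 neighbours in order along the chromosome, with Ascl5WT/WT from the Ascl5Mut/Mut table and a dotted line at a value of 0. Tdrd1 and Afap1l2 stand above all neighbours in Ascl5WT/WT, and no neighbour exceeds 2246 normalized counts.

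Of 26 genes of the piRNA pathway, in which Tdrd1 works in germ cells, 13 were listed at 0 in all 6 libraries. They include the PIWI proteins Piwil2 and Piwil4, the helicase Ddx4 and the tudor proteins Tdrd5, Tdrd9 and Tdrd12. Of all genes 44.2% were listed at 0 in all 6 libraries, so the 50.0% of this list is near the background. Of 5 germ cell markers, Ddx4, Dazl, Dppa3 and Mael were listed at 0 in all 6, and Sycp3, a protein of meiotic chromosomes, had 1341 and 0 in Ascl5WT/WT and 0 and 927 in Ascl5Mut/Mut. No piRNA pathway gene reached the minimum mean of 1000, and none had more than 1461 normalized counts in a library. Without the minimum, limma called 0 of 12 above 0 for Ascl5Mut/Mut and 0 of 9 for Ascl5Mut/WT, against 0.00785% and 0.0949% of all genes. At an unadjusted p under 0.05 were 2 and 0, where all genes above 0 gave 566 of 12731 and 502 of 12644. The summed level of the list was 1669 and 2022 in Ascl5WT/WT and 2450 and 2670 in Ascl5Mut/Mut, where Tdrd1 was lowest. In the Ascl5Mut/WT table, where Tdrd1 was also lower, the sum was 1800 and 2083 in Ascl5WT/WT and 885 and 1739 in Ascl5Mut/WT. These sums were not tested.

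The 3 members of that list with the highest means were Pld6, Snd1 and Tdrd6. Pld6, a mitochondrial enzyme of piRNA production, had 348 and 0 in Ascl5WT/WT, 1365 and 1152 in Ascl5Mut/Mut, and was listed at 0 in both Ascl5Mut/WT libraries. Tdrd6, a further tudor protein of germ cell granules, had 0 and 244 in Ascl5WT/WT, 665 and 704 in Ascl5Mut/Mut, and was listed at 0 in both Ascl5Mut/WT libraries. For both genes the Ascl5Mut/Mut libraries lay above the controls, opposite to Tdrd1. Of the 12 list genes above 0 in that table, 2 had both mutant libraries above both controls and 2 had both below. The shares of all genes above 0 were 13.3% and 13.5%, so with so few genes these counts are near the background. Snd1, a tudor and nuclease domain protein found in most cell types, had 552 and 1419 in Ascl5WT/WT, 0 in each Ascl5Mut/Mut library, and 885 and 837 in Ascl5Mut/WT. None of the 3 passed for Ascl5Mut/Mut without the minimum (limma adjusted p = 0.709 each).

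**Figure D4:**
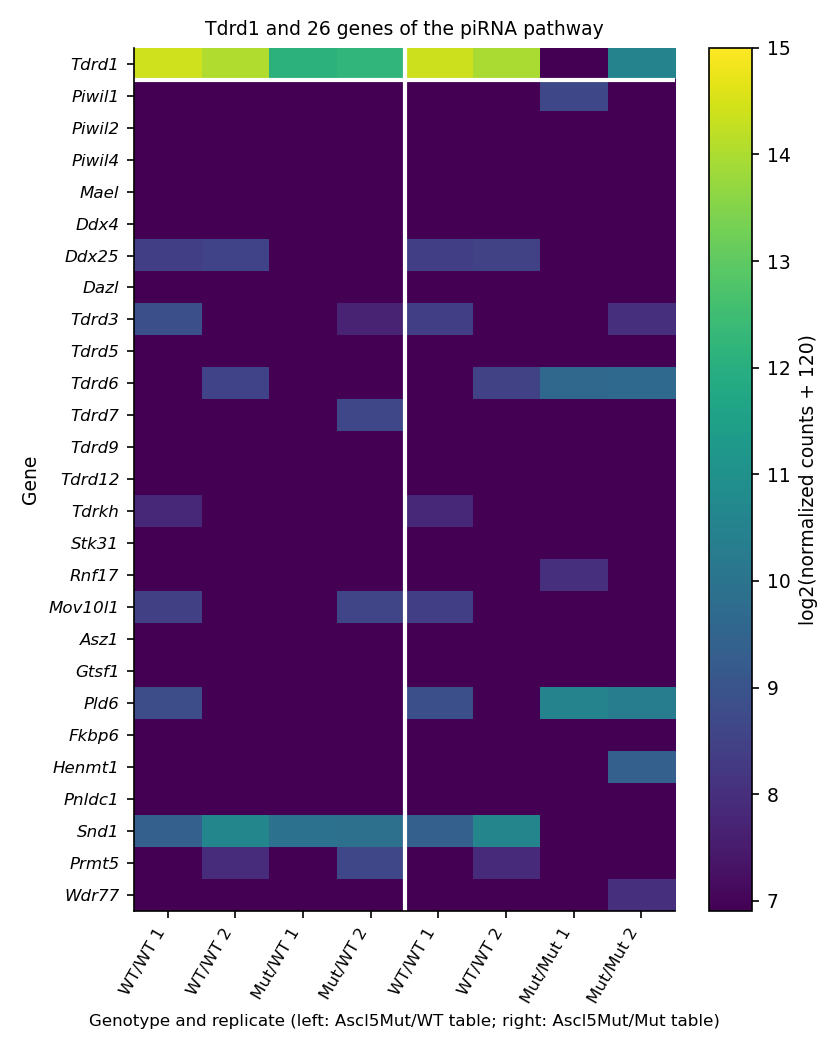
Rows are Tdrd1 (top) and 26 genes of the piRNA pathway, columns are libraries (Ascl5Mut/WT table left of the white line, Ascl5Mut/Mut table right), and color is log2(normalized counts + 120). Tdrd1 is bright in Ascl5WT/WT at 16039 to 21748 normalized counts, while 13 of the 26 rows stay at 0 throughout.

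Vwa2 can be set beside the basement membrane proteins it belongs with. Of 27 partners and relatives, 5 reached the minimum mean. Limma called 0 of 5 in each comparison, against 0.856% and 0.549% of all genes tested. At an unadjusted p under 0.05 were 2 and 1, against 11.2% and 8.73%. The 5 tested genes had a median difference of -0.73 in the Ascl5Mut/Mut comparison and -0.45 in that of Ascl5Mut/WT, against -0.02 and 0.04 over all genes tested. Over the 23 list genes above 0 the medians were -0.70 and 0.15, against 0.01 and 0.05 over all genes above 0. Of those 23, 5 had both Ascl5Mut/Mut libraries below both controls and 4 both above, against 13.5% and 13.3% of all genes. In Ascl5Mut/WT 3 were below and 5 above, against 11.8% and 14.5%. Frem3, Vwa3a, Matn1 and Matn3 were listed at 0 in all 6 libraries. The highest means in the Ascl5Mut/Mut table belonged to Itgb1, Fras1 and Frem2. Hspg2, the basement membrane proteoglycan perlecan, went the other way, with 757 and 1635 in Ascl5WT/WT against 2189 and 3025 in Ascl5Mut/Mut (limma adjusted p = 0.563). For Ascl5Mut/WT, Hspg2 had 763 and 1686 against 3406 and 4902 (limma adjusted p = 0.293) and was the 1 gene at an unadjusted p under 0.05.

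Fras1, the founding member of the Fraser complex, had 4983 and 5359 normalized counts in Ascl5WT/WT, against 1550 and 1507 in Ascl5Mut/Mut. Its values in the Ascl5Mut/WT table were 5088 and 5597 against 3547 and 4248. Its mutant libraries were below both controls in each table, at 29.6% and 73.0% of the control mean. So were those of 21.8% and 19.5% of all genes that averaged 1000 or more. Neither difference of Fras1 passed (limma adjusted p = 0.257 and 0.772). Of the exon bases of Fras1, 159 are shared with the opposite-strand model Gm42604. Frem2, which binds Fras1 in that complex, had 3057 and 4158 in Ascl5WT/WT, against 982 and 821 in Ascl5Mut/Mut. In the Ascl5Mut/WT table it had 3110 and 4327 against 2148 and 2752, so that the means were 25.0% and 65.9% of the controls (limma adjusted p = 0.331 and 0.764). The corresponding shares for Vwa2 were 27.7% and 61.0%, and none of these 6 differences passed the test.

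Itgb1, the integrin beta subunit through which many cells hold their matrix, was higher in both Ascl5Mut/Mut libraries than in both controls. Its normalized counts were 5359 and 6244 in Ascl5WT/WT, compared with 7767 and 8847 in Ascl5Mut/Mut (limma adjusted p = 0.644), and 5474 and 6525 against 6880 and 3606 in Ascl5Mut/WT (limma adjusted p = 0.883). Fras1 and Frem2 are products of epithelium, and values of markers of that tissue are given here. Of 12 such markers 8 and 9 reached the minimum mean, and limma called 0 in each comparison (smallest limma adjusted p = 0.145 and 0.594). Shh, the hedgehog ligand of the enamel organ, was at 2146 and 1340 in Ascl5WT/WT, and each Ascl5Mut/Mut library lists it at 0. Trp63, a factor needed for stratified epithelium, had 21134 and 13756 in Ascl5WT/WT against 1049 and 5829 in Ascl5Mut/Mut (limma adjusted p = 0.145). Krt14 had 14740 and 13227 against 6362 and 20549 (limma adjusted p = 0.862), and Shh did not pass without the minimum (limma adjusted p = 0.709). Of the 12 epithelial markers, 5 had both Ascl5Mut/Mut libraries below both controls and 1 had both above, against 13.5% and 13.3% of all genes above 0. The 1 above was Krt15, with 0 in each control against 823 and 5974. The part of these markers in the values of Tdrd1, Vwa2 and Afap1l2 was not tested. In bulk tissue fewer cells of a type and less RNA per cell cannot be told apart. In Ascl5Mut/WT 1 of the 12 had both libraries below and 1 both above, against 11.8% and 14.5% of all genes above 0. There Shh had 1136 and 1533, and Trp63 had 6837 and 15167, and both overlapped their controls. The epithelial sum of 81089 in Ascl5Mut/Mut replicate 2 exceeded both controls through Dsp (40760) and Krt14 (20549), while Trp63 and Krt17 (1864) were below both controls and Shh, Sp6 and Epcam were listed at 0. In that library Tdrd1 was at 7.19%, Vwa2 at 33.5% and Afap1l2 at 13.5% of the control mean. In Ascl5Mut/Mut replicate 1, with the lowest epithelial sum of 16916, they were at 0%, 21.9% and 3.17%.

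**Figure D5:**
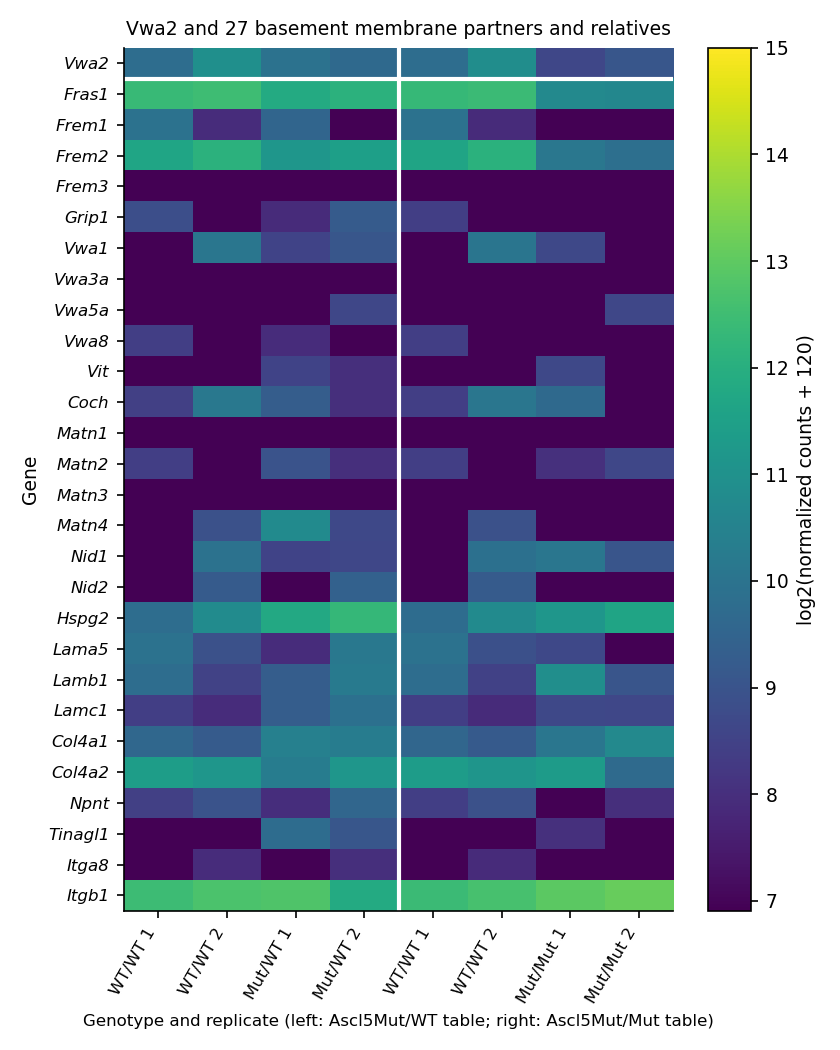
Rows are Vwa2 (top) and 27 basement membrane partners and relatives, columns are libraries (Ascl5Mut/WT table left of the white line, Ascl5Mut/Mut table right), and color is log2(normalized counts + 120). Fras1 and Frem2 are darker in the Ascl5Mut/Mut columns (1507 to 1550 and 821 to 982 normalized counts) than in Ascl5WT/WT, Itgb1 is brighter there, and Vwa2 spans 276 to 1826.

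Of 20 AFAP relatives and Src or actin partners of Afap1l2, 7 reached the minimum mean in the Ascl5Mut/Mut table and 4 in the Ascl5Mut/WT table. Limma called 0 of 7 and 0 of 4, against 0.856% and 0.549% of all genes tested, so 0 calls is near the background. At an unadjusted p under 0.05 were 0 in each, against 11.2% and 8.73%. Median differences of the tested genes were 0.30 and -0.26, against -0.02 and 0.04 over all genes tested. Actb, the cytoplasmic beta actin and the gene with the highest mean of the list, had 8068 and 7054 in Ascl5WT/WT against 6496 and 7769 in Ascl5Mut/Mut (limma adjusted p = 0.959). Actn4, an actin crosslinker, had 2079 and 1749 against 1683 and 3341, and Actg1, the gamma actin, 1647 and 1673 against 1802 and 2601. Of its 2 relatives, Afap1l1 had 0 in each Ascl5WT/WT library, 140 and 0 in Ascl5Mut/Mut and 127 and 0 in Ascl5Mut/WT. Afap1 had 328 and 240 in Ascl5WT/WT, 974 and 410 in Ascl5Mut/Mut, and 883 and 1508 in Ascl5Mut/WT. Its values in both mutant genotypes lay above the controls, as did those of 14.5% of all genes above 0 in Ascl5Mut/WT, while those of Afap1l2 lay below. For Afap1 neither difference passed without the minimum (limma adjusted p = 0.709 and 0.770).

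The genes with the pattern most like that of Tdrd1 and Afap1l2 were sought among the genes that averaged 1000 or more in both tables, 2028 besides the gene itself. Likeness was the root mean square difference of log2(normalized counts + 120), centred on the Ascl5WT/WT mean of each table, over the 8 columns of both tables, which share the control libraries. The 5 nearest to Tdrd1 were Gm11532, Gm19402, Afap1l2, Tigd4 and Rbm12b1, at 0.83 to 1.10, where the median over all others was 3.06. The 5 nearest to Afap1l2 were Gm19402, Rbm12b1, Tigd4, Ldah and Stard4, at 0.56 to 0.77 against a median of 2.18. Because the same values chose Tdrd1 and Afap1l2, their likeness to each other follows from that choice and is no result. Gm19402, Tigd4, Rbm12b1, Ldah and Stard4 reached the minimum mean in the Ascl5Mut/Mut table through their Ascl5WT/WT values only.

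Gm11532 had far higher counts than the pair in Ascl5WT/WT and the others had lower ones. Gm11532 had 869880 and 389900 normalized counts in Ascl5WT/WT against 2113 and 29497 in Ascl5Mut/Mut, but 885110 and 405800 against 356430 and 417750 in the Ascl5Mut/WT table, where the groups overlapped. It shares 3329 exon bases with Sp6 on the opposite strand, which was listed at 1525 and 0 in Ascl5WT/WT. The strand setting of the counting is unknown here, so the reads of Gm11532 may include reads of Sp6. Gm19402, an unnamed model, had 4598 and 2216 normalized counts in Ascl5WT/WT, 0 and 143 in Ascl5Mut/Mut, and 752 and 711 in Ascl5Mut/WT. Tigd4, derived from a pogo-like transposase, had 2588 and 4001 in Ascl5WT/WT, 0 in each Ascl5Mut/Mut library, and 1004 and 1065 in Ascl5Mut/WT. Rbm12b1, an RNA-binding protein gene, had 5549 and 2088, then 0 and 440 in Ascl5Mut/Mut, and 2010 and 1082 in Ascl5Mut/WT. Ldah, a lipid droplet hydrolase gene, had 2709 and 3335, then 121 and 0, and 813 and 857. Stard4, a sterol transport gene, had 3836 and 1956, then 0 and 265. In the Ascl5Mut/WT table Stard4 had 3902 and 2036 against 1512 and 2138, where the groups overlapped. None of these is among the 20 neighbours of the 3 genes.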

How the data were processed

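RNA of maxillary first molars was sequenced from stranded total RNA libraries of 3 Ascl5 genotypes, 2 libraries each. The authors deposited normalized gene counts (a linear signal) as 2 tables, each of 4 libraries and normalized on its own. The mm10 genome and DESeq2 are named, per the submitters' processing notes; the aligner, annotation and strand setting are unknown here. Columns were matched to samples by library name. The value of 1 read was taken as the most frequent value under 200, and 85.8% to 93.8% of values up to 5 steps lay within 0.1 of a whole number, too few to recover reads, so no count model was run.

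Within each table the mutant libraries were set against Ascl5WT/WT by limma 3.58.1 (R 4.3.3), two-sided and with its variance trend, on log2(normalized count + 120), for genes with a mean of at least 1000, with Benjamini-Hochberg adjustment over all genes tested and a threshold of 0.05. An exact permutation test of 2 against 2 cannot go below p = 0.33 and was not used. The fit was checked on simulated data. Genes named were the members, the 20 nearest protein-coding neighbours and the 5 genes nearest in pattern. From the lists came the called genes, some absent ones and the 3 genes of each partner list with the highest means. Afap1, Afap1l1 and Hspg2 were picked after their values were seen. So were the single tissue markers (Shh, Trp63, Krt14, Krt15, Krt17, Dsp, Sp6, Epcam, Dlx1, Col1a1, Sycp3). Members, lists and settings were chosen with earlier results of these data known. Alternatives covered pseudocounts of 1, 60 and 240, minimum means, rescaled libraries, a replicate block and leaving out each library.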

Additional observations from a re-analysis of the deposited data

How the results depend on the processing

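For Ascl5Mut/Mut limma called 20 genes, and 4 with a pseudocount of 1, 12 with 60, 3 with a minimum mean of 240 and 1 without a minimum. Leaving out a library gave 0 to 74, with 0 without Ascl5Mut/Mut replicate 1 (263 genes at an unadjusted p under 0.05), 4 without replicate 2 and 74 without Ascl5WT/WT replicate 2. For Ascl5Mut/WT it called 13 genes, and 8 with a pseudocount of 1. Leaving out a library gave 0 to 66, with 0 without Ascl5Mut/WT replicate 2 (133 at an unadjusted p under 0.05), 2 without replicate 1, 43 without Ascl5WT/WT replicate 1 and 66 without replicate 2. The cause was not tested. With 1 library left in a group, that library is assumed to vary like the other group.

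With the replicate block 36 and 37 genes were called. Same-numbered libraries share only a number, and their deviations correlated by -0.013 and 0.023, so the block is not taken as a pairing. It changed no call of Vwa2 or a neighbour.

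Vwa2 passed under none of the 11 alternatives in either comparison (limma adjusted p = 0.322 to 0.861 and 0.727 to 0.971). It was below 0 under all 11 for Ascl5Mut/Mut and under 10 for Ascl5Mut/WT, reaching 0.02 without Ascl5WT/WT replicate 2 and -1.10 without replicate 1. The differences of Tdrd1 and Afap1l2 were below 0 under all 11 in both comparisons. Both genes were chosen for that fall, and leaving out a library could not change the sign, so nothing is read from this. The Tdrd1 difference in Ascl5Mut/Mut moved to -8.98 with a pseudocount of 1, since 1 library is listed at 0. No neighbour was called under any alternative. Vwa2 rests on an estimated 2 to 15 reads per library.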
